A study of Mus musculus with 8 samples.

Results

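A set of 9 genes of early B cell development and Igj, the joining chain gene, were followed across erythroblasts and stem and progenitor cells of mouse bone marrow. The 10 genes were taken by symbol: the recombinase genes Rag1 and Rag2, the surrogate light chain genes Vpreb1 and Igll1, the receptor signalling genes Cd79a, Cd79b and Blk, the transcription factor genes Pax5 and Ebf1, and Igj. All 10 of 10 symbols were found among the 23337 genes of the deposited count table. They were chosen because, among erythroblasts, the first 9 had lower counts and Igj had higher counts in the libraries labelled Plek2-/-. The values of the 10 genes in that contrast, their standard errors and the counts made from them therefore describe the choice: no p is given for them and they support nothing. Values inside and outside a threshold cannot be set side by side, because the symbols were listed by name and no threshold was used.

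The mice were C57BL/6, 4 months old, and every group carried JAK2V617F/+, the activating kinase allele of human myeloproliferative disease, so no group is free of it. The comparison was between Plek2+/+ and Plek2-/- animals, where Plek2 encodes pleckstrin-2, a protein that binds membrane phosphoinositides and takes part in actin organisation of erythroid cells. Erythroblasts were purified as TER119-positive marrow cells, and stem and progenitor cells (HSPC) as Kit-positive cells of the lineage-negative marrow. The 8 libraries formed 4 groups of 2: erythroblasts labelled Plek2+/+ (ERY-VF) or Plek2-/- (ERY-DKO) and progenitors labelled Plek2+/+ (HSPC-VF) or Plek2-/- (HSPC-DKO). Below, "VF-labelled" and "DKO-labelled" stand for these genotype labels. The antibodies used for lineage depletion, the design of either allele, any Cre driver, and whether the 2 libraries of each group are from different mice: none of this is given in the sources used here. The p-values therefore measure only the spread between these libraries, which may be technical.

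Library totals ran from 16038035 to 23521726 counts. Levels are given as counts-per-million (CPM) on totals scaled by TMM, and a count of 0 would allow up to 0.0983 to 0.235 CPM, an upper limit that covers counting error only. Plek2 itself had 1770 and 1894 counts in ERY-VF, 616 and 781 in ERY-DKO, 29 and 21 in HSPC-VF, and 130 and 173 in HSPC-DKO. In progenitors it thus went against the label, and which exons the deletion removes is not given in the sources used here. Xist was high only in the VF-labelled libraries and Ddx3y, Eif2s3y, Uty and Kdm5d only in the DKO-labelled ones (8 of 8 libraries), so sex and the Plek2 label cannot be told apart in any genotype comparison below. The sorted populations differed in their own markers: the 8 erythroblast markers summed to 41033 to 44909 CPM in erythroblast libraries against 1020 to 1127 CPM in progenitor libraries, and the 8 stem and progenitor markers to 181 to 251 against 923 to 1067 CPM. Both populations also held transcripts of neutrophil markers, which summed to 13588 to 22585 CPM in erythroblast and 4438 to 25471 CPM in progenitor libraries.

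B cells arise in the marrow from lymphoid progenitors through pro-B and pre-B stages. The factors Ebf1 and Pax5 commit cells to the lineage, the Rag1 and Rag2 proteins cut immunoglobulin gene segments for V(D)J recombination, and the Vpreb1 and Igll1 proteins stand in for a light chain until a real one is made. Cd79a and Cd79b carry the signal of the pre-B and B cell receptor. Igj is different in kind: its protein joins polymeric IgM and IgA, and it is best known from antibody-secreting plasma cells. Erythroblasts are not a known site of expression of the 9 B lineage genes.

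The RefSeq table of start sites (GRCm38.p6) matched 8 of the 10 genes, with 9 entries. No entry was matched for Cd79b and Blk. The E-box CAGGTG is the motif of the lymphoid factor E2A. It was found within 250 bases upstream of the RefSeq start sites of Rag1, Vpreb1, Igll1 and Cd79a. It was not found upstream of those of Rag2, Pax5, Ebf1 or Igj. The bases upstream of 3 genes that hold it are shown, with those of Igj, the gene with the opposite label difference in erythroblasts. Each is written 5′ to 3′ on the strand of its gene, and capitals mark the E-box on either strand (CAGGTG or CACCTG). The coordinates are chr2:101649533-101649782 (minus strand) for Rag1, chr16:16863986-16864235 (minus strand) for Igll1, chr7:24897247-24897380 (plus strand, cut where an annotated exon begins) for Cd79a, and chr5:88527898-88528147 (minus strand) for Igj.
Rag1: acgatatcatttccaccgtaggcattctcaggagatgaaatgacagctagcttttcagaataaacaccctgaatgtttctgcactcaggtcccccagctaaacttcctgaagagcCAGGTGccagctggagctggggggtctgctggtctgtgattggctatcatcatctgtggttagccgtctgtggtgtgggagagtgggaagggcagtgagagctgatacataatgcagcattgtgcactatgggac
Igll1: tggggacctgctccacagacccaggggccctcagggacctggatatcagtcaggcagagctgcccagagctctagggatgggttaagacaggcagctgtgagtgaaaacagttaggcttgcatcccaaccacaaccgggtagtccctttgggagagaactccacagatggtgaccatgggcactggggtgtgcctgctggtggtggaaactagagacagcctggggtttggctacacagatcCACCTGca
Cd79a: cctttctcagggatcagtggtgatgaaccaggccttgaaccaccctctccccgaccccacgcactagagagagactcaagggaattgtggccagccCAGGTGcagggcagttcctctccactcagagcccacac
Igj: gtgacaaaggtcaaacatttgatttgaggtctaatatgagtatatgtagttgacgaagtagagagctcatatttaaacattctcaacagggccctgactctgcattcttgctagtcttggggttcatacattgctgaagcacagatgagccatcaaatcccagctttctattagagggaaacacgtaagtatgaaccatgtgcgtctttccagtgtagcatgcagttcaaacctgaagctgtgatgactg

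The E-box lay 135 bases before the start site of Rag1, 88 before that of Vpreb1, 8 before that of Igll1 and 154 before that of Cd79a. Of the 250 bases upstream of the Vpreb1 start, 190 overlap an annotated exon, so they are not printed. These 250 bases (16869256 to 16869505) lie inside the annotated gene (16868403 to 16870843), so the Vpreb1 E-box is not upstream of the whole gene. The bases searched for both Ebf1 entries also lie inside the annotated gene. For the first Ebf1 entry all 250 overlap an annotated exon. The same 6 letters occur on either strand within 250 bases upstream of 17.2% of the 32851 promoters in the table. An EBF motif (TCCC and GGGA with any 2 bases between, present in 0.779% of promoters), the octamer (ATTTGCAT, 1.6%) and a MEF2 motif (CTA and TAG with any 4 bases between, 3.2%) were searched on both strands and matched none of the 9 entries. A match is a description of letters, and none of these data measure binding.

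The recombinase genes encode the subunits of the enzyme that cuts receptor gene segments. Rag1 lies on chromosome 2 (GRCm38, 101638282 to 101649501, minus strand) and Rag2 beside it on the opposite strand (101624718 to 101632529). Rag1 stood at 55.1 and 50.5 CPM in ERY-VF, 26.1 and 21.9 in ERY-DKO, 127 and 94.1 in HSPC-VF, and 76.7 and 106 in HSPC-DKO. Both DKO-labelled erythroblast libraries lay below both VF-labelled ones, while the progenitor libraries of the labels overlapped. The log2 fold change between labels in erythroblasts was -1.13 (SE 0.12), a 2.19-fold lower level, and in progenitors it was -0.23 (SE 0.17, adjusted p = 0.566).

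Rag2, the partner needed for cutting, ran much lower at 4.84 and 3.05 CPM in ERY-VF, 2.35 and 1.43 in ERY-DKO, 7.33 and 5.39 in HSPC-VF, and 5.76 and 6.55 in HSPC-DKO. Its erythroblast difference between labels was -1.08 (SE 0.33) on the log2 scale, resting on 79, 45, 30 and 21 counts. In progenitors it was 0.01 (SE 0.18, adjusted p = 0.983). There were 11.1 to 17.4 Rag1 counts for each Rag2 count over the 8 libraries, with overlapping ranges in erythroblasts and progenitors. Exons of Rag1 and Rag2 share 80 and 208 bases with those of B230118H07Rik, and the strand setting of the counting is not given in the sources used here, so reads in those bases cannot be assigned with certainty.

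The surrogate light chain genes are specific to pro-B and pre-B cells. Vpreb1 (chromosome 16, 16868403 to 16870843, minus strand) stood at 6.73 and 5.43 CPM in ERY-VF, 4.85 and 2.45 in ERY-DKO, 6.81 and 3.34 in HSPC-VF, and 8.26 and 5.83 in HSPC-DKO. Igll1, its near neighbour (16860671 to 16863985), stood at 16.7 and 12.6 CPM in ERY-VF, 12.7 and 4.89 in ERY-DKO, 12.8 and 9.51 in HSPC-VF, and 19.6 and 14.1 in HSPC-DKO. For both genes the VF-labelled erythroblast and progenitor libraries overlapped.

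Between labels in erythroblasts, Igll1 was the single gene of the 10 whose libraries overlapped, with a log2 fold change of -0.75 (SE 0.31). The value for Vpreb1 was -0.75 (SE 0.29). In progenitors both had positive values: 0.54 (SE 0.31, adjusted p = 0.445) for Vpreb1 and 0.65 (SE 0.19, 95% interval 0.20 to 1.09, adjusted p = 0.119) for Igll1. Both DKO-labelled progenitor libraries lay above both VF-labelled ones for Igll1, but the difference did not pass the threshold, an adjusted p under 0.05. Igll1 passed in 5 of 11 alternative settings (adjusted p 3.63e-05 to 0.679), DESeq2 among them at 0.0407. Vpreb1 counts are uncertain because the gene has a near-identical copy, Vpreb2 (2 to 20 counts per library), and shares 108 exon bases with Top3b. The number of Vpreb1 counts per Igll1 count was 0.351 to 0.533 in all 8 libraries.

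**Figure D1:**
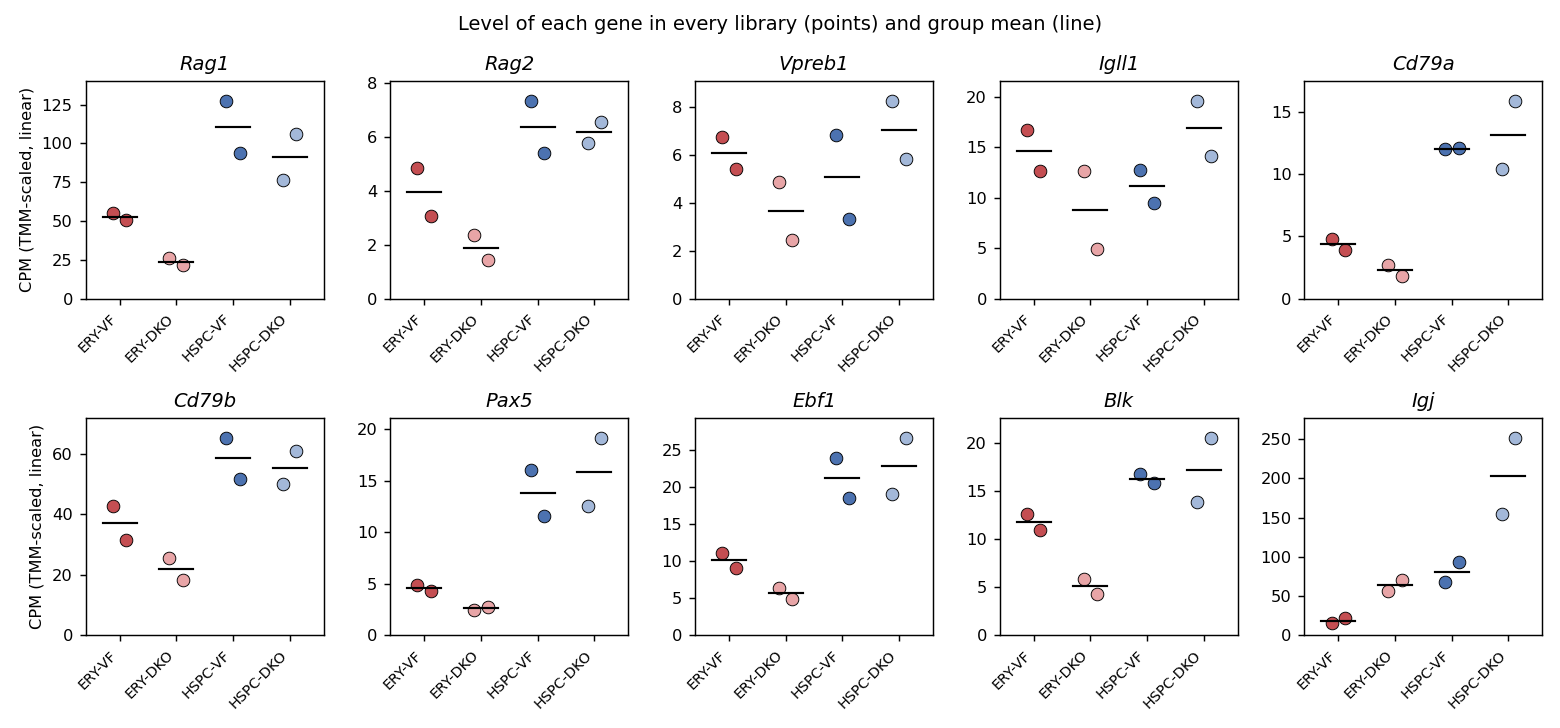
Level of each of the 10 genes in CPM (linear axis from 0, TMM-scaled) in the 2 libraries of each group, with each library as a point and the group mean as a line. In erythroblasts the DKO-labelled points lie below the VF-labelled ones for Rag1, Rag2, Vpreb1, Cd79a, Cd79b, Pax5, Ebf1 and Blk and above them for Igj, which reaches 252 CPM in a DKO-labelled progenitor library.

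Among the signalling genes, Cd79b was the most abundant. Cd79b (chromosome 11, 106311341 to 106314762, minus strand) stood at 42.9 and 31.6 CPM in ERY-VF, 25.5 and 18.4 in ERY-DKO, 65.4 and 51.7 in HSPC-VF, and 49.9 and 61.0 in HSPC-DKO. Cd79a (chromosome 7, 24897381 to 24902197, plus strand), which encodes the partner chain of the same heterodimer, stood at 4.77 and 3.94 CPM in ERY-VF, 2.74 and 1.84 in ERY-DKO, 12.02 and 12.07 in HSPC-VF, and 10.4 and 15.9 in HSPC-DKO. The erythroblast libraries held 8.03 to 10 Cd79b counts per Cd79a count and the progenitor libraries 3.84 to 5.44, so the 2 populations did not overlap in that ratio.

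Blk (chromosome 14, 63372836 to 63417037, minus strand), a Src family kinase of B cells, stood at 12.7 and 10.996 CPM in ERY-VF, 5.87 and 4.35 in ERY-DKO, 16.8 and 15.8 in HSPC-VF, and 13.9 and 20.6 in HSPC-DKO. It had the lowest log2 fold change between labels in erythroblasts of the 10 genes, -1.21 (SE 0.20), beside -0.93 (SE 0.28) for Cd79a and -0.76 (SE 0.17) for Cd79b. In progenitors the 3 values were 0.13, 0.17 and -0.03, with adjusted p-values of 0.769, 0.702 and 0.938, and the libraries of the labels overlapped for each gene.

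Ebf1 and Pax5 are the factors that commit cells to the B lineage. Ebf1 (chromosome 11, 44617317 to 45008091, plus strand) stood at 11.1 and 9.03 CPM in ERY-VF, 6.34 and 4.96 in ERY-DKO, 23.8 and 18.4 in HSPC-VF, and 19.0 and 26.6 in HSPC-DKO. Pax5 (chromosome 4, 44524757 to 44710487, minus strand) stood at 4.90 and 4.34 CPM in ERY-VF, 2.43 and 2.79 in ERY-DKO, 16.01 and 11.6 in HSPC-VF, and 12.6 and 19.2 in HSPC-DKO. The differences between labels in erythroblasts were -0.83 (SE 0.21) and -0.81 (SE 0.25) on the log2 scale. In progenitors they were 0.17 (adjusted p = 0.701) for Ebf1 and 0.26 (adjusted p = 0.607) for Pax5. Pax5 shares 761 exon bases with 5730488B01Rik and Gm12462, so part of its count is uncertain.

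Igj (Jchain in current annotation, ENSMUSG00000067149.6, chromosome 5, 88519809 to 88527891, minus strand) was higher in the DKO-labelled libraries of both populations. It stood at 15.7 and 21.6 CPM in ERY-VF, 57.1 and 70.8 in ERY-DKO, 68.4 and 93.0 in HSPC-VF, and 154 and 252 in HSPC-DKO, from 256, 318, 730, 1041, 1457, 2759, 3954 and 7687 counts. In both populations each DKO-labelled library lay above each VF-labelled one, and the ranges of ERY-DKO and HSPC-VF overlapped. In erythroblasts, the contrast that chose the gene, its log2 fold change was 1.80 (SE 0.15), a 3.47-fold difference. The progenitor libraries did not define the choice of the 10 genes. Earlier results of these data were known when it was made, so the progenitor test is not fully independent of it. In progenitors Igj rose by 1.37 on the log2 scale (SE 0.22, 95% interval 0.86 to 1.88), a 2.58-fold difference with an adjusted p of 0.0112 by edgeR's quasi-likelihood test. It was called in 11 of 11 alternative settings, with an adjusted p of at most 0.0179.

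**Figure D2:**
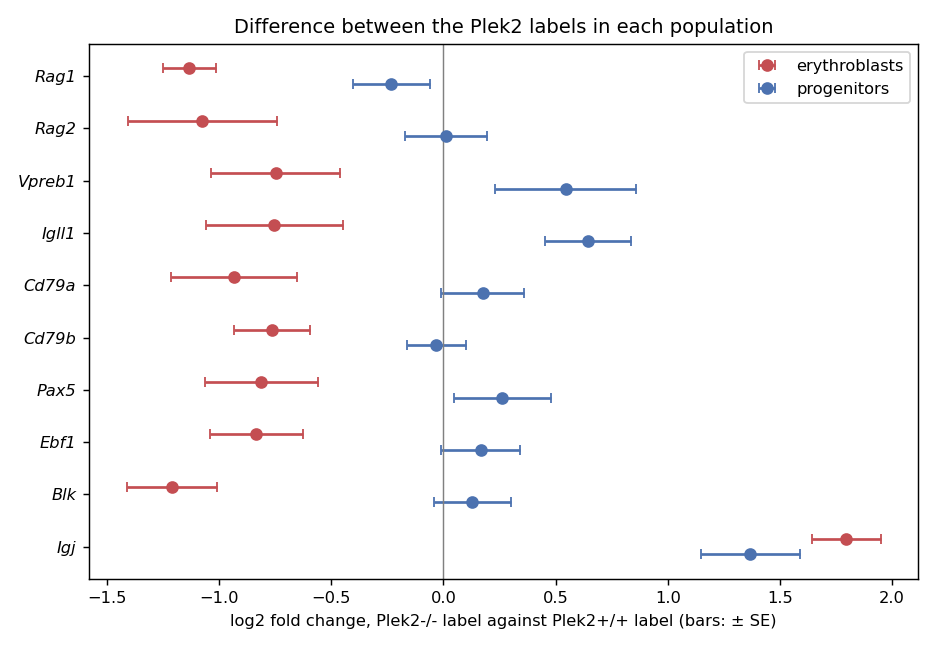
Log2 fold change of each gene between DKO-labelled and VF-labelled libraries in erythroblasts and in progenitors (points) with its standard error (bars), 2 libraries a group. The 9 B lineage genes lie between -1.21 and -0.75 in erythroblasts and between -0.23 and 0.65 in progenitors, whereas Igj lies at 1.80 and 1.37.

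The erythroblast counts are given only to describe the choice of genes, which fixed their direction. In the fit over all genes, Rag1, Blk, Cd79b and Igj were among the 2.84% of 12241 genes called (2.66% lower and 0.180% higher), which makes 4 of the 10. The libraries of the labels did not overlap for 8 genes that were lower and 1 that was higher, where 23.9% and 21.5% of all genes did the same. Nothing is read from these counts. The median log2 fold change of the 9 B lineage genes was -0.83, beside 0.01 over all genes tested. Fewer cells of a type and less RNA per cell cannot be told apart in bulk libraries such as these.

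Among progenitors, 1 of the 10 genes passed (Igj, higher), where 4.91% of the 13168 genes tested did, 4.50% higher and 0.402% lower. Igj and Igll1 were the 2 genes whose DKO-labelled libraries both lay above the VF-labelled ones, as in 19.0% of all genes, and none had both below, as in 33.2%. The median of the 9 B lineage genes was 0.17, beside -0.01 over all genes. At an unadjusted p under 0.05 there were 2 genes, Igj and Igll1. Whether the label difference itself differed between erythroblasts and progenitors was not tested for these genes, because they were chosen on one side of that comparison.

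Each population comparison uses erythroblast libraries that also entered the choice of genes. The choice favoured low Igj and high levels of the other 9 genes in ERY-VF, and the opposite in ERY-DKO. It thus leaned toward lower Igj in the VF-labelled comparison and lower levels of the 9 in the DKO-labelled one. The p-values of both comparisons do not allow for this. In VF-labelled libraries, 8 of the 10 genes were lower in erythroblasts than in progenitors, where 37.8% of 13365 genes were lower and 36.0% higher (73.8% called in all). The libraries of these 8 genes did not overlap, as in 46.5% of all genes for lower levels and 42.6% for higher ones. Igj differed most, by -2.12 on the log2 scale (SE 0.23, 4.36-fold, adjusted p = 2.83e-06). Pax5 (-1.56) and Cd79a (-1.46) followed, then Rag1 (-1.07), Ebf1 (-1.06), Rag2 (-0.67), Cd79b (-0.65) and Blk (-0.46, adjusted p = 0.0385). The call for Blk was lost with DESeq2 (adjusted p = 0.0593) and without any of the 4 VF-labelled libraries (adjusted p 0.0759 to 0.252). Rag2 was lost without ERY-VF replicate 2 (adjusted p = 0.309) or HSPC-VF replicate 1 (0.206), and Cd79b without ERY-VF replicate 2 (0.0942).

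The exceptions were the surrogate light chain genes. Vpreb1 had a value of 0.30 (SE 0.33, adjusted p = 0.431) and Igll1 of 0.41 (SE 0.30, adjusted p = 0.227) in the same comparison, with 95% intervals of -0.42 to 1.02 and -0.23 to 1.06. Their sign depended on the scaling: with library totals alone the values were -0.51 and -0.40, and the median of all genes moved by -0.81. Vpreb1 was called higher without HSPC-VF replicate 1 (0.87, adjusted p = 0.0374) and had a value of -0.16 without HSPC-VF replicate 2. Igll1 was called higher in 3 of 14 alternative settings, and its values ran from -0.40 to 0.64 over the settings. These calls included the settings without either ERY-DKO library, which are no part of that comparison itself.

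In DKO-labelled libraries all 10 genes were lower in erythroblasts than in progenitors, where 39.2% of 13365 genes were lower and 37.5% higher (76.7% called in all). None of the 10 overlapped between populations, as in 45.8% of all genes for lower levels and 42.2% for higher ones. The differences ran from -2.60 for Pax5 (SE 0.26, 6.08-fold) and -2.54 for Cd79a to -0.96 for both Vpreb1 (adjusted p = 0.0245) and Igll1 (adjusted p = 0.0131). Igj differed by -1.66 (3.17-fold). Vpreb1 was not called without ERY-DKO replicate 2 (adjusted p = 0.219) or HSPC-DKO replicate 1 (0.137). Igll1 was not called with DESeq2 (0.0935) or without those same libraries (0.143 and 0.0889).

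Levels between genes were compared per kilobase of exon, in CPM per kb. In the VF-labelled groups Cd79b stood highest, at 26.0 ± 5.57 (SD, n = 2) in ERY-VF and 40.9 ± 6.74 in HSPC-VF, where its libraries overlapped those of Igj at 32.1 ± 6.91. In the DKO-labelled groups Igj stood highest, at 25.4 ± 3.83 in ERY-DKO and 80.6 ± 27.5 in HSPC-DKO, above Cd79b at 15.3 ± 3.53 and 38.7 ± 5.49 with no overlap. Pax5 had the lowest mean in all 4 groups, from 0.294 ± 0.0289 in ERY-DKO to 1.79 ± 0.526 in HSPC-DKO. In ERY-VF, Rag1 (7.99 CPM per kb), Igj (7.40) and Igll1 (6.78) overlapped each other. Rag1 came after Cd79b and Igj in HSPC-VF at 16.8 CPM per kb, apart from Igj above it and from Cd79a (8.27) below it.

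Counts within a library show the make-up of the B lineage signal apart from its size. The 9 genes summed to 160 and 132 CPM in ERY-VF, 88.8 and 63.0 in ERY-DKO, 288 and 222 in HSPC-VF, and 216 and 276 in HSPC-DKO. Rag1 made up 34.5 to 38.4 of every 100 of these counts in ERY-VF, 29.3 to 34.8 in ERY-DKO, 42.4 to 44.2 in HSPC-VF and 35.5 to 38.5 in HSPC-DKO. Igll1 made up 9.60 to 10.5 in ERY-VF and 7.78 to 14.3 in ERY-DKO, but 4.28 to 4.43 in HSPC-VF and 5.12 to 9.06 in HSPC-DKO. The VF-labelled populations thus did not overlap in the Igll1 share, and the DKO-labelled ones did.

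For each 100 counts of the 9 genes there were 9.81 to 16.4 Igj counts in ERY-VF and 64.3 to 112 in ERY-DKO, and 23.7 to 41.9 in HSPC-VF and 71.3 to 91.3 in HSPC-DKO. Per count of Cd79b, Igj had 0.365 to 0.682, 2.24 to 3.86, 1.05 to 1.80 and 3.09 to 4.13 counts in these groups. In erythroblasts the choice of genes, Igj as higher and the 9 as lower, fixed the direction of both ratios. The progenitor values did not define that choice, though earlier results of these data were known when it was made. In progenitors both DKO-labelled libraries lay above both VF-labelled ones by either measure, and the summed level of the 9 genes overlapped between labels.

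**Figure D3:**
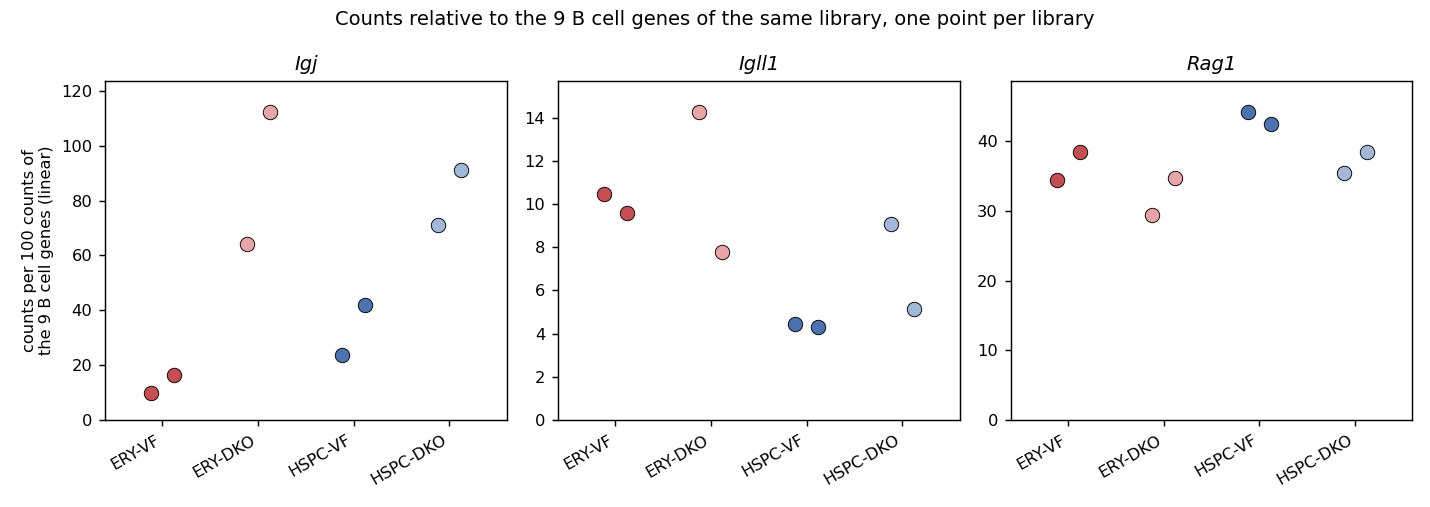
Igj, Igll1 and Rag1 counts per 100 counts of the 9 B lineage genes in the same library (linear axes from 0), 1 point per library in each group. Igj lies at 23.7 to 41.9 in HSPC-VF and 71.3 to 91.3 in HSPC-DKO, its erythroblast direction was fixed by the choice of genes, and Igll1 is lowest in HSPC-VF at 4.28 to 4.43.

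Over the 8 libraries, which share 4 groups and so are not independent points, the log2 CPM of 7 of the 9 B lineage genes correlated with the mean of the 9 at Pearson r of 0.92 to 0.99. Vpreb1 and Igll1 stood at 0.72 each and Igj at 0.36. Each of the 9 is part of that mean, and the 9 were chosen to be lower and Igj to be higher in the same libraries, so high values for the 9 and a low value for Igj are partly built in. Among the other 12073 genes compared, those most like the mean of the 9 included Phldb2, Pou2af1, Gfra1 and Stk10, each at r = 0.99. Pou2af1 is a B lineage coactivator. The genes most like Igj were Slc38a6 (r = 0.97), Slc25a36 (0.96) and Phlda1 (0.95).

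The wider B lineage programme was described from lists of genes that are not members. Their label differences among erythroblasts come from the same libraries that chose the 10 genes, so they are not independent support. Over all 12241 genes tested, 2.66% were lower and 0.180% higher in DKO-labelled erythroblasts. Of 15 tested pre-B and B cell receptor signalling genes, 5 were lower and none higher there (median log2 fold change -0.37). An example was Plcg2 (-0.70, adjusted p = 0.0095), a phospholipase of receptor signalling. Of 16 lymphoid and B lineage transcription factor genes, 5 were lower (median -0.61), among them Pou2af1 (-1.09, adjusted p = 0.00771) and Irf4 (-0.85, adjusted p = 0.0142). Of 10 precursor stage markers, 5 were lower (median -0.54), among them Akap12 (-0.95) and the interleukin-7 receptor gene Il7r (-0.78). Of 13 tested mature B cell markers, 2 were lower (median -0.52): Fcrla (-0.82) and Ms4a1 (-0.81), which encodes CD20.

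None of 11 other genes of V(D)J recombination and end joining passed in either population, with medians of 0.07 in erythroblasts and 0.08 in progenitors. In VF-labelled libraries 5 of them were higher in erythroblasts than in progenitors and 2 lower, beside 36.0% and 37.8% of all genes. The list is thus not specific to lymphoid cells. The most abundant were Prkdc in erythroblasts (0.22, adjusted p = 0.265), whose product is the DNA end-joining kinase, and Atm in progenitors (-0.16, adjusted p = 0.219). Dntt, the terminal transferase gene of early lymphocytes, was looked at after its values were seen. It stood at 22.6 and 18.1 CPM in ERY-VF, 28.5 and 11.3 in ERY-DKO, 96.1 and 81.4 in HSPC-VF, and 119 and 75.7 in HSPC-DKO, overlapping between labels in both populations.

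In progenitors none of 16 signalling genes (median 0.18, Syk 0.22, adjusted p = 0.208) and none of 16 transcription factor genes (median -0.02, Irf8 -0.27, adjusted p = 0.111) passed. Of 10 stage markers (median -0.01, 5 values above 0 and 5 below), 2 were higher in DKO-labelled libraries, where 4.50% of all genes were. Bst1, a surface enzyme of stromal, myeloid and early B cells, rose by 1.32 (adjusted p = 0.0019) and Cd24a by 0.42 (adjusted p = 0.0104), and both are known outside the B lineage. Of 15 mature B cell markers, 1 was lower, where 0.402% of all genes were. It was Ly86 (-0.35, adjusted p = 0.0436), which myeloid cells also use. The median of the 15 was 0.14, with 13 values above 0 and 2 below.

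Plasma cell markers were examined beside Igj. None of 13 tested in erythroblasts (median -0.20) or 15 in progenitors (median 0.06) passed. Edem1, the most abundant, had values of -0.25 (adjusted p = 0.171) and 0.00 (adjusted p = 0.983). The summed level of the 15 markers was 476 to 507 CPM in ERY-DKO against 538 to 543 in ERY-VF, and 770 to 774 in HSPC-DKO against 791 to 838 in HSPC-VF. The sum follows its most abundant genes, such as Edem1 at 223 and 237 CPM in HSPC-DKO. Tnfrsf17 stood at 0.389 and 0.459 CPM there, so the sum says little about the rarer markers. The single markers did not all follow the sum. Log2 fold changes were positive for 10 and negative for 5 in progenitors, and positive for 1 and negative for 12 in erythroblasts. In progenitors 3 of the 15 had both DKO-labelled libraries above the VF-labelled ones and 4 had both below. Among all genes 19.0% and 33.2% did the same. In erythroblasts the numbers were 0 and 6 of 13, beside 21.5% and 23.9% of all genes. The 3 higher ones in progenitors were Prdm1 (0.58, adjusted p = 0.175), 2010001M09Rik, now Mzb1 (0.43, adjusted p = 0.0885), and Slamf7 (0.38, adjusted p = 0.22). The 4 lower ones were Fkbp11 (-0.29, adjusted p = 0.394), Txndc5 (-0.24, adjusted p = 0.106), Ssr4 (-0.18, adjusted p = 0.34) and Creld2 (-0.05, adjusted p = 0.806). Both sets were named after their values were seen. Of defining genes also named in that way, Tnfrsf17, the plasma cell receptor BCMA, had 1 to 14 counts per library, and Sdc1, which encodes CD138, stood at 4.28 to 4.84 CPM in erythroblasts and 10.05 to 11.5 CPM in progenitors.

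Plasmacytoid dendritic cells, another lymphoid type of the marrow, were examined in the same way. Of 11 tested markers 1 was lower in DKO-labelled erythroblasts, Spib (-1.14, adjusted p = 0.00221), an Ets factor that B cells also use (median -0.22). Of 12 in progenitors 1 was higher, Siglech (0.57, adjusted p = 0.0113), with a list median of 0.16. Among all genes 2.66% were lower in erythroblasts and 4.50% higher in progenitors. The summed level of the 12 markers was 228 to 270 CPM in ERY-DKO and 272 to 302 in ERY-VF, and 468 to 543 in HSPC-DKO and 486 to 515 in HSPC-VF. No marker of these 2 lists was at 0 in any library, and their part in the Igj difference was not tested.

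**Figure D4:**
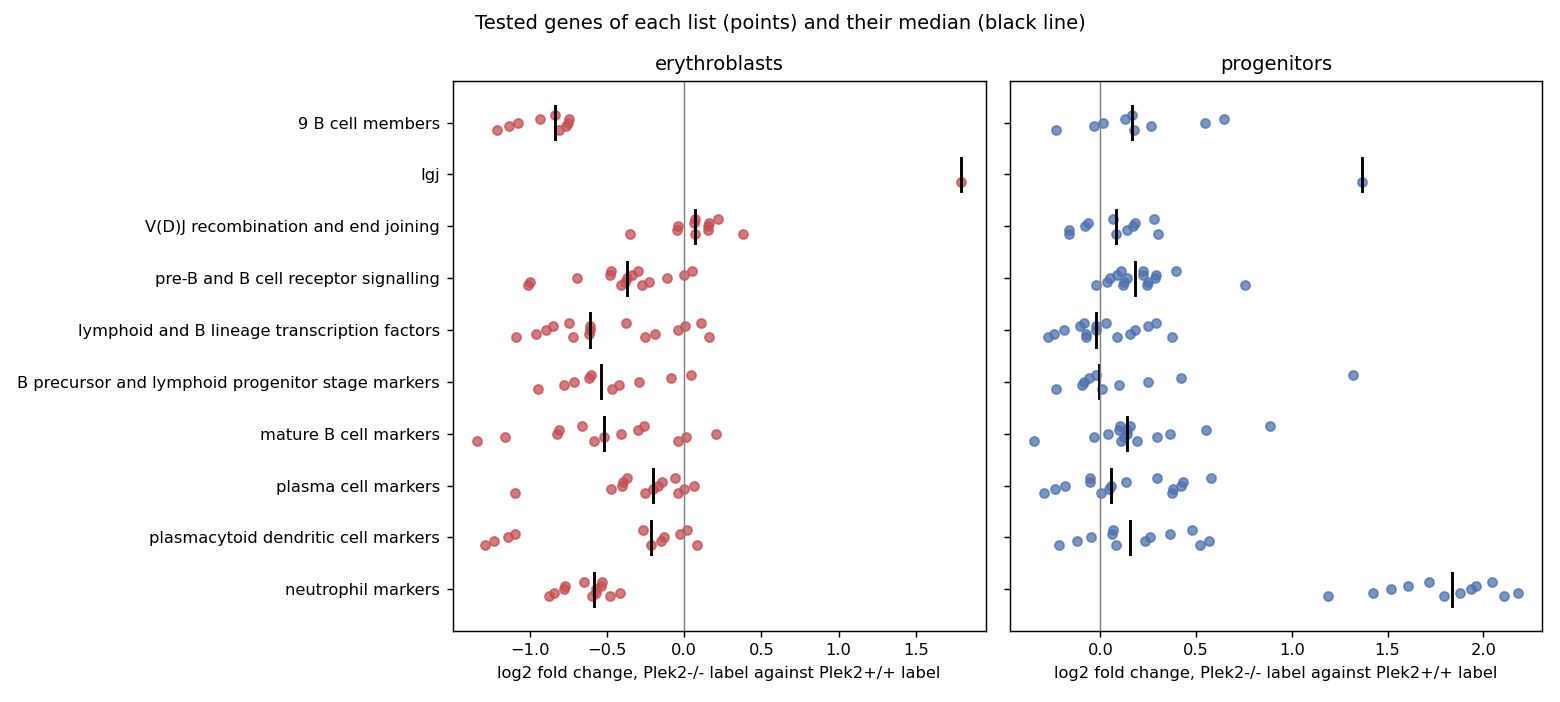
Log2 fold change between DKO-labelled and VF-labelled libraries of each tested gene (points) and the median (black line) for the 9 B lineage genes, Igj and 8 lists, in erythroblasts (left) and progenitors (right). The signalling, transcription factor, precursor stage and mature B cell lists have medians of -0.61 to -0.37 in erythroblasts and -0.02 to 0.18 in progenitors. The V(D)J recombination and end joining list has medians of 0.07 and 0.08. Plasma cell markers have -0.20 and 0.06, and neutrophil markers -0.58 and 1.84, while Igj lies at 1.80 and 1.37.

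Markers of other marrow cells moved with the label too. Over all genes, 2.66% were lower and 0.180% higher in erythroblasts, and 0.402% lower and 4.50% higher in progenitors. Of 12 neutrophil markers, 9 were lower in DKO-labelled erythroblasts (median -0.58, Ifitm6 -0.87 and Lcn2 -0.78), where they summed to 13588 to 15048 CPM against 19510 to 22585. In progenitors 12 of 12 were higher (median 1.84, Cxcr2 1.52 and Mmp8 1.72), at 18881 to 25471 against 4438 to 7453 CPM. Their part in the values of the 9 B lineage genes and of Igj was not tested. Of 7 tested mast cell, basophil and eosinophil markers, 2 were lower in erythroblasts (Epx -1.07, Prg2 -1.06) and 1 in progenitors (Prss34 -0.52). No T and NK cell (11 tested in erythroblasts, 12 in progenitors), macrophage (10), erythroblast (8) or stem and progenitor marker (8) passed in either population. Their most abundant genes were Lck (-0.12) and Nkg7 (0.14), Vcam1 (0.16) and Csf1r (-0.27), Slc4a1 (0.09) and Tfrc (0.00), and Myb (-0.30 and -0.14), in erythroblasts and progenitors respectively.

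Transcripts of the immunoglobulin and T cell receptor segments could not be set beside these genes, since 0 such symbols were in the count table analysed here.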

How the data were processed

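RNA of 8 libraries was sequenced on an Illumina HiSEQ4000 after TRIzol extraction, per the labels' protocols. Per the submitters' processing notes the tools were HTSeq 0.6.1pl, STAR 2.5.2a, cutadapt 1.13 and DESeq2 1.14.1, with build mm10. Neither annotation nor strand setting is given in the sources used here. The authors deposited raw counts (whole reads per gene), which were used as deposited, and their separate normalized table was not used. No molecular identifiers are named, so floors cover counting error only. Positions and exon lengths come from GENCODE vM21 on GRCm38.

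Label differences were tested within each population, and populations within each label in a fit of all 4 groups, with edgeR 4.0.16 in R 4.3.3 (TMM, filterByExpr defaults, quasi-likelihood test, Benjamini-Hochberg adjustment over all tested genes, threshold 0.05). All 10 members passed the filter in each of the 4 comparisons. The code of the test was tried on counts simulated from the same model, which cannot show how well that model describes these libraries. CPM uses TMM-scaled totals of all 8 libraries, and correlations use log2 CPM with a prior count of 2. The members, the 13 lists (153 genes, all matched, 5 of them by older symbols) and the tests were chosen with earlier results of these data known. In each list the names printed are up to 2 called genes, by adjusted p, or else the most abundant gene, and of the 5 genes per pattern for likeness those given are among the closest. A gene that these rules select is not reported here. The 2 libraries of each group differed beyond counting noise (chi-square over its degrees of freedom was 5.65 to 15.7), so no group was taken to hold 1 library deposited under both numbers, which does not show that the libraries came from separate mice. Alternatives were DESeq2 1.42.0, limma-voom (limma 3.58.1), size factors, library totals, no filter, a replicate block, all 8 libraries in 1 fit and leaving out each library.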

Additional observations from a re-analysis of the deposited data

How the results depend on the processing

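Among erythroblasts, the contrast that chose the members, whose counts are therefore a description only, 4 members and 348 of all genes were called: the members were 10 with no filter on low counts and 2 to 9 when a library was left out (2 without either ERY-VF library, 9 without ERY-DKO replicate 1), and all genes were 230 with library totals, 845 with no filter, 579 with a replicate block and 25 to 995 with a library left out. No member changed sign there. In progenitors, 1 member and 646 genes were called. The members were 3 with no filter, 2 with DESeq2 and 2 with a replicate block (Igll1, 0.64, joined Igj), and 1 to 5 with a library left out, while all genes were 1315 with no filter and 239 to 2649 with a library left out. Without HSPC-DKO replicate 1 the calls included Cd79a (0.44), Pax5 (0.54), Ebf1 (0.39) and Blk (0.38). Without HSPC-DKO replicate 2, Rag1 (-0.48) and Igll1 (0.88) were called, and without HSPC-VF replicate 1, Vpreb1 (1.12) and Igll1 (0.87). Signs changed in progenitors for Rag2 with library totals (-0.047), with all 8 libraries in 1 fit (-0.032), without HSPC-VF replicate 2 (-0.21) and without HSPC-DKO replicate 2 (-0.08). They also changed for Rag1 (0.0022) and Cd79b (0.14) without HSPC-VF replicate 1, Ebf1 (-0.02) without HSPC-VF replicate 2, Cd79b (0.11) without HSPC-DKO replicate 1, and Cd79a (-0.17), Pax5 (-0.070), Ebf1 (-0.092) and Blk (-0.19) without HSPC-DKO replicate 2. Over the libraries left out, Rag2 ran from -0.21 to 0.24 and Cd79b from -0.20 to 0.14. None of these sign changes touched a call. Between populations, members called were 8 in VF-labelled (5 to 9 with a library left out) and 10 in DKO-labelled libraries (8 to 10), of 9865 (8630 to 10051) and 10251 (9336 to 10259) genes. Vpreb1 (-0.51) and Igll1 (-0.40) turned negative in VF-labelled libraries with library totals, and Vpreb1 (-0.16) without HSPC-VF replicate 2. Where a library is left out, its group has 1 library, assumed to vary like the others. The causes were not tested. Over all genes, the deviations of same-numbered libraries were nearly uncorrelated (-0.08 to 0.10), which does not exclude pairing by number. Igj was lower in replicate 1 than in replicate 2 in all 4 groups, and Vpreb1 and Igll1 were higher. For the other members the order varied between groups. The block changed no other member's call in progenitors or between populations. Igj kept its direction and call under every alternative run in the progenitor and population comparisons. Depth limits the erythroblast values of Rag2, Vpreb1, Cd79a and Pax5, which rest on 21 to 110 counts a library.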
